A study of Mus musculus with 3 samples.

Results

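PIPE-CLIP, a caller of enriched read clusters in CLIP data, listed 391 clusters on the minus strand of mouse chromosome 11, and these are described here. They were chosen by chromosome and strand alone, out of 3257 PIPE-CLIP clusters on all chromosomes, and were taken up because their number stood out, so the number itself is a description and was not tested. The data are AGO2 HITS-CLIP of 3 libraries of the mouse P19 line, made with the antibody clone 2D4 and without any treated or control group. P19 is an embryonal carcinoma line, a tumour-derived relative of pluripotent cells. Each caller has 1 list for the whole series, with no library named in it, so the values, depth and spread of single libraries are unknown. Of 12 marker genes of such cells, 4 had a peak in any list (Pou5f1, Lin28a, Lin28b and Lefty1) and 8 had none, and a peak list does not measure expression. The share of all genes with a peak in any list is not given here, so 4 of 12 cannot be called high or low.

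AGO2 is the Argonaute protein that carries a microRNA and is guided by it to partly complementary sites, most often near the 3′ end of messenger RNAs, where it lowers translation and shortens the life of the RNA. In HITS-CLIP the RNA is crosslinked to the protein by ultraviolet light, trimmed, recovered with an antibody and sequenced with its strand kept. A cluster on the minus strand of a gene that is itself read from the minus strand is therefore a fragment in the sense of that gene, and a cluster on the other strand is antisense.

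Most of the clusters, 72.6% of the 391, were scored as sense fragments, chiefly of protein-coding genes. Of the 287 that could be scored for strand, 284 were sense. All but 13 of the 391 clusters lay in gene spans, of 167 genes. The highest numbers were in Igf2bp1 (16, its gene strand not matched), Plekhm1 and Cnot6 (14 each) and Msi2 (13). Another caller had a peak at 42 of the 391.

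Sequence was at hand for few clusters, since the genome was not used here. The RefSeq tables (GRCm38.p6, the coordinates of mm10) cover windows at annotated gene starts, and microRNAs. The start windows touched 7 clusters, 6 of them along their whole length. The following stretches of 30 bases are shown because they are the centres of the clusters that lay in the start window of a gene holding the cluster in sense. All are read 5′ to 3′ on the minus strand, with no letter marked.
Eif5a, chr11:69921186-69921215: agcagttgggctcgcggcgagcggaccagg
Fgf11, chr11:69802278-69802307: cagctgggactctgtggtactagaaatggg
Gm11767, chr11:119939244-119939273: catgtccccatcatggctgaaggcagaggc
Atpaf2, chr11:60417150-60417179: gcgcgaacggccctctgggacttgtagttt
The covered bases of these 4 clusters had GC contents of 68.0%, 51.1%, 62.5% and 65.2% in the order shown, against a median of 52.7% (quartiles 45.7% and 61.7%) over 32851 start windows of 300 bases. The Atpaf2 cluster also lay in the span of Gid4, a gene of the plus strand. No other caller had a peak at any of the 7, which scored 10 to 19. The letters GCACTT, which pair with the seed shared by the miR-302 and miR-290 families of pluripotent cells, were searched on the minus strand only and were found in 0 of the 7. Of the 32851 start windows, 1.36% held them in the central 72 bases of the gene strand, and beside so low a share 0 of 7 says little. The windows run from 250 bases before their annotated start to 50 bases after it. Their central 72 bases, and most of the bases behind their GC contents, thus lie before the start. On this strand a gene span begins at its high coordinate, 69921958 for Eif5a, 69802944 for Fgf11, 119943094 for Gm11767 and 60420479 for Atpaf2. The 4 clusters shown lay further inside than a window there would reach. Their windows thus belong to annotated starts within the spans, and not to the outer end of the gene.

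MicroRNA genes were counted without a test, and no share over other stretches of like length stands beside the counts. Of 32 minus-strand hairpins on the chromosome, 1 was overlapped by a cluster, Mir3063, which lies in the span of Igf2bp1. The cluster there, chr11:95963185-95963372, covered both mature arms and extended well past them. The arms are shown with the seed, bases 2 to 8, in capitals.
miR-3063-5p: uGGAGAUCagguuugcacacu
miR-3063-3p: uGAGGAAUccugaucucucgcc
Pyicoclip had peaks at 3 of the 32 hairpins and Piranha at 2, and none of these held a PIPE-CLIP cluster. The counts are too small to tell the lists apart. Arms with a Pyicoclip peak are shown, since they are the microRNAs of this strand in that list.
miR-21a-5p: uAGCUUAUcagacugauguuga
miR-423-5p: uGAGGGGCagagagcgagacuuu
miR-423-3p: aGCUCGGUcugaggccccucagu
miR-744-5p: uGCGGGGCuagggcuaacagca
None of the 6 sequences shares its seed with another. Apart from the Mir3063 cluster, no cluster overlapped a minus-strand hairpin of the RefSeq table.

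The excess was first set against the other chromosomes. Chromosome 11 held 391 minus-strand clusters, and the next highest, chromosome 1, held 212. It held 13.8% of the nuclear minus-strand clusters (95% Wilson interval 12.6 to 15.2) and 7.12% of the nuclear plus-strand clusters (4.98 to 10.1). The minus-strand clusters were taken up for their number, so the interval of their share is not a test. It also counts clusters of 1 gene as independent. Chromosome 11 has 1609 protein-coding genes, and the other nuclear chromosomes have 20274. In the other lists, chromosome 11 held 9.29% of Pyicoclip minus-strand peaks (7.60 to 11.3) and 8.13% of Piranha minus-strand peaks (6.31 to 10.4), again the highest of any chromosome in both. CIMS had 1 of 47 nuclear minus-strand peaks there. The minus strand took up 93.3% of the chromosome 11 clusters (90.5 to 95.3), the fifth highest share among 21 chromosomes. The strand imbalance itself was thus not greatest on chromosome 11. It ran through the whole PIPE-CLIP list, where 2835 clusters (87%) were on the minus strand and 422 on the plus strand. The other lists had no such surplus. Nuclear minus-strand and plus-strand peaks numbered 936 and 995 for Pyicoclip, 689 and 674 for Piranha, and 47 and 81 for CIMS.

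The count was then scaled by the number and strand of genes. Per 100 annotated protein-coding genes there were 24.3 minus-strand clusters on chromosome 11, against 12 over the other chromosomes pooled, a ratio of 2.02. Chromosome 15 came close, with 22.0. Per Mb of gene span the values were 5.96 on chromosome 11 and 2.06 on the others, with 3.50 on chromosome 15 as the next. The share of genes with a cluster and the clusters per gene were also compared, over genes of matched minus strand only, so that these ratios do not multiply to 2.02. Among protein-coding genes known to lie on the minus strand, 126 of 649 on chromosome 11 held a cluster, which is 19.4%, against 11.5% on the other chromosomes (933 of 8113, chromosome 18 not analysed here), a ratio of 1.69. The genes that held one had 2.37 clusters each on chromosome 11 and 1.83 on the others, a ratio of 1.30, and chromosome 15 was higher, at 2.97. Chromosome 11 thus ranked the highest in the share of genes and the second in clusters per gene, among 19 chromosomes with a value.

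**Figure D1:**
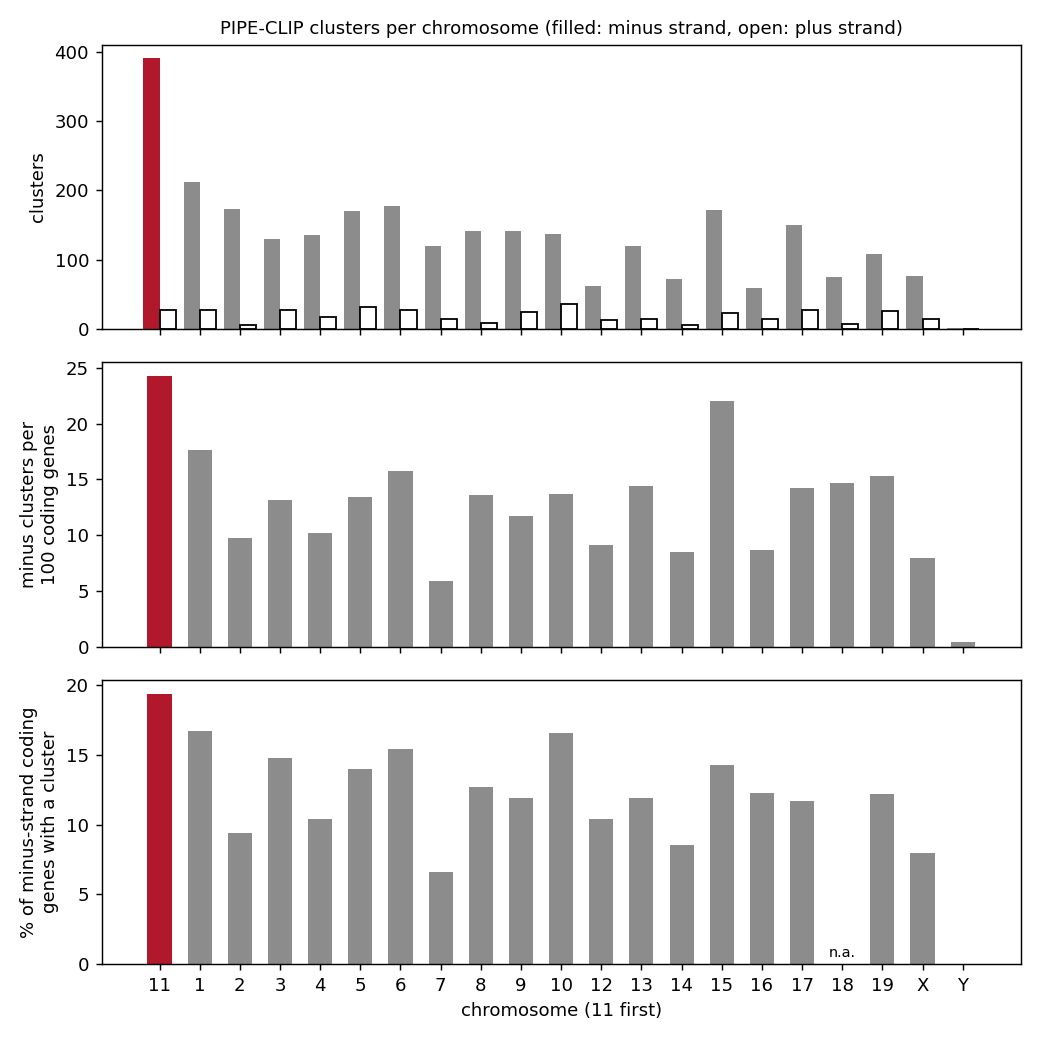
PIPE-CLIP clusters by chromosome, with chromosome 11 in red at the left: the number per strand (top), minus-strand clusters per 100 protein-coding genes (middle) and the percent of minus-strand protein-coding genes with a cluster (bottom; n.a., gene strands of chromosome 18 were not analysed here). Chromosome 11 had 391 minus-strand clusters, 24.3 per 100 genes and 19.4% of genes, each the highest bar of its panel.

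The cluster names carry running numbers that go chromosome by chromosome and rise with position on chromosome 11. If the numbering is continuous, the numbers between the first and the last name of a chromosome give the clusters numbered there, listed or not. Chromosome 11 spanned 16260 numbers, 7.29% of the 222973 in the list, and 2.58% of them were listed, both strands together. Over all chromosomes 1.46% were listed, and the next highest after chromosome 11 was chromosome 17 with 2.08%, leaving out chromosome Y, where 1 cluster was listed. The lowest score in the list was 10. Chromosome 11 was thus highest both in numbers spanned and, with chromosome Y left out, in the share listed. The score is the authors' own value per cluster, of unstated unit.

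In score and width the medians were close to those of the rest, and neither was tested. The median score was 13 (quartiles 11 and 18, range 10 to 223) on chromosome 11 and 14 (11 and 18, 10 to 144) for 2433 minus-strand clusters of the other nuclear chromosomes. The median width was 85 nt (quartiles 69 and 108) on chromosome 11 and 82 nt (66 and 105) elsewhere. A score of 20 or more was held by 84 clusters (21.5%) on chromosome 11 and by 19.4% elsewhere. At the floor of the list, 51 chromosome 11 clusters scored exactly 10.

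Strand relative to the gene was then examined. Gene strands were taken from the RefSeq start windows and microRNA table, which gave a strand to 1271 of the 1609 protein-coding genes of the chromosome (79.0%), with 649 on the minus strand and 622 on the plus strand. Of the 391 clusters, 284 lay only in genes of the minus strand, 3 only in genes of the plus strand, 12 in overlapping genes of both strands, 79 in a span that included a gene without a matched strand and 13 in no gene. The sense share of the scored clusters was 99.0% (97.0 to 99.6). On the other nuclear chromosomes it was 98.5% of 1676 minus-strand clusters (97.8 to 99.0), a difference of 0.446 percentage points (95% interval -1.59 to 1.43), not detectable by Fisher's exact test (two-sided, Benjamini-Hochberg adjusted over 8 tests, p = 0.915). Of the chromosome 11 plus-strand clusters, 25 of 25 scored were sense (adjusted p = 1.0 by the exact test). Read by gene, 0.482% of the plus-strand protein-coding genes of chromosome 11 (3 of 622) had a minus-strand cluster in their span, overlapping minus-strand genes included, beside the 19.4% of minus-strand genes. In the other lists, on the same strand, Pyicoclip had 41 sense and 7 antisense peaks among 48 scored, 85.4% (72.8 to 92.8), and Piranha had 19 and 12 among 31, 61.3% (43.8 to 76.3). Differences between lists in this share were not tested.

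All 3 antisense clusters can be named. One, in Col23a1, a collagen gene, scored 14. The other two were neighbours in Gm36876, a long non-coding RNA gene of the plus strand (chr11:108980739-109034783), and had the highest scores of all 391. The cluster at 109011729 to 109012101 scored 223 and was 373 nt wide, and the one at 109011644 to 109011722 scored 52. The Pyicoclip peak over both, at 109011644 to 109012107, scored 126, and the CIMS peak at 109011636 to 109011676 scored 122. Piranha had 5 minus-strand peaks there, all overlapping the wider cluster and 1 reaching into both. This is the only place on the strand with peaks of all 4 callers, and its RNA of origin is uncertain, since the strand is opposite to the annotated gene.

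Protein-coding spans held 371 of the 391 clusters, 94.9% (92.2 to 96.7), against 91.8% elsewhere (90.6 to 92.8), and the difference did not pass the test after adjustment (exact test, p = 0.0326 before and 0.131 after). The plus-strand clusters of chromosome 11 had 25 of 28 there, 89.3% (exact test, adjusted p = 0.513). Of the 167 genes with a cluster, 149 were protein-coding, 12 were long non-coding, 5 were pseudogenes and 1 was a small nucleolar RNA gene. Of all 1609 protein-coding genes on the chromosome, 9.26% had a cluster in their span. A single cluster was held by 88 genes, 2 clusters by 32, 3 or 4 by 28, and 5 or more by 19. The 19 together held 149 clusters (38.1%). The 15 genes with most held 134 (34.3%), and without these 15 the chromosome still had 257, more than the 212 of chromosome 1 with all its genes. These raw counts are not scaled by gene number, which is 1609 protein-coding genes on chromosome 11 and 1204 on chromosome 1. They therefore do not show whether the excess per gene remains without the 15. On the other chromosomes 6.71% of the genes with a cluster had 5 or more, against 11.4% on chromosome 11, and the highest was Slc2a3 with 15.

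**Figure D2:**
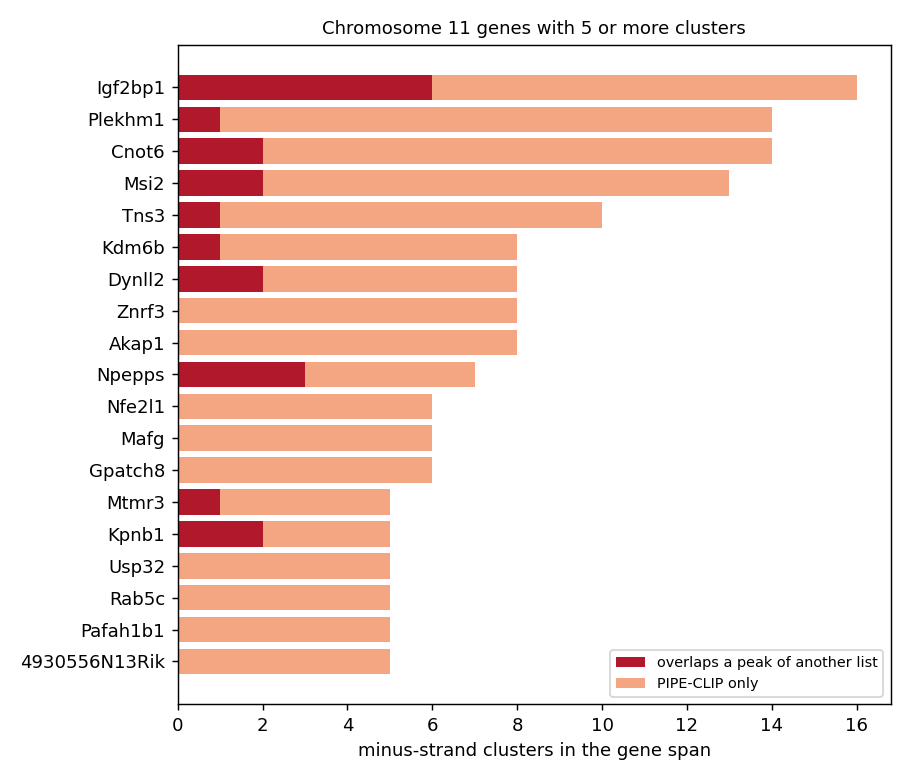
Number of minus-strand clusters in each of the 19 chromosome 11 genes with 5 or more, split into clusters that overlap a peak of another list (dark) and clusters of PIPE-CLIP only (light). Igf2bp1 had the most clusters, 16, and the most that overlap another list, 6. The 5 clusters of 4930556N13Rik are also counted in Akap1.

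The genes with most clusters are described below by what they are known to do, an order that was not tested as a theme. Igf2bp1 encodes an RNA-binding protein of embryonic cells that stabilises its target messenger RNAs. Its span, chr11:95957163-96005944, held 16 clusters with scores of 11 to 46 and a median of 22.5, and its gene strand was not matched. Of these, 14 lay between 95957248 and 95963372, and the other two at 95966210 and 95992483. The gaps between neighbours had a median of 299 nt. Pyicoclip overlapped 6 of the 16, all between 95960341 and 95962840. Of these, the cluster at 95961870 to 95962031 met no minus-strand Pyicoclip peak and counts only through a strandless one. The 2 highest-scoring clusters, 46 at the Mir3063 hairpin and 38 at 95957248, were overlapped by no other list.

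Cnot6, a catalytic deadenylase of the CCR4-NOT complex, which AGO2-bound messenger RNAs recruit through partner proteins, held 14 sense clusters with scores of 10 to 25. In Cnot6, 9 of the 14 lay in the last 10% of the gene, from 980 nt to its annotated end onwards, and 2 were overlapped by Pyicoclip. The other 5 reached up to 40693 nt from that end, and 3 of these lay between 49708899 and 49712225, near the gene's start.

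Msi2, a Musashi family RNA-binding protein, showed another layout. Its 13 sense clusters were strewn over 345648 nt of a 378925-nt span, with a median gap of 11700 nt. The cluster nearest to the gene's end, at 88341929, scored 39, its neighbour at 88342433 scored 17, and both were overlapped by Pyicoclip. The remaining 11 scored 10 to 20 and were overlapped by none. Ddx5, an RNA helicase gene, held 3 clusters, the highest of 31, and 2 of them overlapped another list.

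Plekhm1, an adaptor for the fusion of late endosomes and autophagosomes with lysosomes, held 14 sense clusters with scores of 11 to 42. In Plekhm1, 7 lay in the last 10% of the gene, between 103364787 and 103367703, with scores of 11 to 34. The clusters at 103377224 and 103387166 scored 42 and 35, were far from the gene's end and were overlapped by no list. Of the 14, Pyicoclip overlapped 1. Other genes of membrane traffic and the cytoskeleton were Tns3, a tensin of focal adhesions, with 10 clusters over 231787 nt, and Dynll2, a dynein light chain gene, with 8. Those of Dynll2, whose gene strand was not matched, lay within 4032 nt, with a median gap of 120 nt. Rab5c, an early endosome GTPase gene, held 5 sense clusters within 3152 nt, and Pafah1b1, a regulator of dynein, held 5 over 50239 nt. Mtmr3, a phosphoinositide phosphatase gene, held 5 clusters with scores of 11 to 41, its gene strand not matched.

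Of genes with a role in transcription or chromatin, Kdm6b, a histone demethylase gene, held 8 clusters with scores of 11 to 31, and the highest of them, at 69398880, was overlapped by Piranha and Pyicoclip. The remaining 7 were overlapped by none, and the gene strand of Kdm6b was not matched. Nfe2l1, a transcription factor gene of the proteasome stress response, held 6 sense clusters with a highest score of 41, and Mafg, the gene of a small MAF partner protein, held 6 with a highest score of 39. None of these 12 clusters was overlapped by another list. Gpatch8 also held 6, with scores of 10 to 15 and no overlap.

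Znrf3, a ubiquitin ligase gene that removes Wnt receptors from the membrane, held 8 clusters with scores of 11 to 20 and no overlap. Its gene strand was not matched. Akap1, an anchor of protein kinase A at mitochondria, held 8, and 5 of these also lay in the plus-strand gene 4930556N13Rik, so only 3 could be scored as sense. Npepps, an aminopeptidase gene, held 7, of which 3 were overlapped by another list. Kpnb1, the gene of importin beta, held 5 with 2 overlapped, and Usp32, a deubiquitinase gene, held 5 with none. Slc1a4, a neutral amino acid transporter gene, held a cluster of 42 that was 318 nt wide and was overlapped by no list.

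Gene lists by function were counted next, and none was tested. The shares below stand beside 9.26% of all protein-coding genes of the chromosome and 19.4% of those on the minus strand. Of 19 chromatin genes, 6 held clusters, 20 in all. Besides Kdm6b these were Hdac5, a histone deacetylase gene, and Kat7, a histone acetyltransferase gene, with 3 each, and Bptf, Top2a and Ezh1 with 2 each. Of 17 translation and ribosome genes, 3 held clusters, Npm1 with 3 and the initiation factor genes Eif4a1 and Eif5a with 2 each. Of 14 splicing and RNA processing genes, Msi2 and Ddx5 held clusters. Of 14 cell cycle and p53 genes, Top2a and Cdc27 did, with 2 and 1. Of 21 signalling genes, the list in which Igf2bp1 was placed, 3 held clusters, the others being the kinase genes Csnk1d with 4 and Nlk with 2. Of 17 cytoskeleton, metabolism and housekeeping genes, 7 held clusters, and all 7 were among the 10 on the minus strand. They were Canx with 4, Fasn with 3, Sqstm1 with 2, and Sparc, Acly, Hspa4 and P4hb with 1 each. Genes of other cell types, such as muscle myosins, keratins, globins and chemokines, held none (0 of 23, 8 of them on the minus strand), and the Hoxb cluster held none (0 of 10, with 7 of unmatched strand and none known to be on the minus strand). Over all these gene lists, no plus-strand gene held a cluster. Of all plus-strand protein-coding genes of the chromosome only 0.482% did (3 of 622), so the lists do not stand out in this.

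The clusters lay in 73 windows of 1 Mb, of the 122 that reach to the last protein-coding gene. The 5 fullest windows held 96 clusters (24.6%). The window from 88 Mb, chr11:88000001-89000000, held 22, of which 13 were in Msi2, 8 in Akap1, 5 of these also in 4930556N13Rik, and 1 in Scpep1os, a non-coding gene that overlaps Scpep1. The window from 120000001 held 20 over 8 genes, with Mafg 6, Csnk1d 4, Arhgdia 3 and Fasn 3. The window from 95000001 held 19, of which Igf2bp1 had 16 and Kat7 had 3. The window from 102000001 held 18 over 10 genes, led by Gpatch8 with 6 and Hdac5 with 3, followed by Atxn7l3 and Ubtf, the gene of a ribosomal RNA transcription factor, with 2 each. The window from 69000001 held 17 over 10 genes, led by Kdm6b with 8, then Eif4a1 and Eif5a with 2 each and Pfas with 1. The top windows therefore differed in kind, since some were filled by 1 or 2 genes and others by many. Beyond 60 Mb lay 73.1% of the clusters and 71.0% of the protein-coding genes, while single windows departed from gene number. The window from 88000001 had 22 clusters for 10 protein-coding genes, and that from 99000001 had 2 clusters for 55. Joined where less than 100 kb apart, they formed 119 runs, of which the largest held 18.

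Of the 13 clusters in no gene, 9 lay 944 to 3512 nt past the annotated 3′ end of the nearest gene, itself on the minus strand. These were 5 beyond Appbp2, between 85187749 and 85190287, and 2 each beyond Stc2 and Ern1. The Appbp2 set had scores of 12 to 29, and Pyicoclip overlapped 1 of them.

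Position along the gene could be given for 282 sense clusters in exactly 1 protein-coding span of known strand. The last 10% of the span held 120 of them, 42.6%, against 40.7% of 1581 clusters elsewhere. On chromosome 11 the part of equal length just before it held 8.87%, and the first 10% held 7.09%. The median distance to the annotated gene end was 3693.5 nt on chromosome 11 and 4692 nt elsewhere. Within 1000 nt of the end lay 20.6% and within 5000 nt lay 54.6% of the chromosome 11 clusters, against 19.2% and 51.4% of those elsewhere. Taking the highest-scoring cluster of each gene, whichever its orientation, the last 10% held 53 of 121 genes on chromosome 11, 43.8% (35.3 to 52.7), against 41.6% of 890 genes elsewhere. The difference of 2.23 points (interval -6.89 to 11.7) was not detectable (exact test, adjusted p = 0.915). Nor was that from the plus strand of chromosome 11, with 8 of 17 genes (exact test, adjusted p = 0.915). Exons and untranslated regions were not used, so a cluster near the gene end was not assigned to either.

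**Figure D3:**
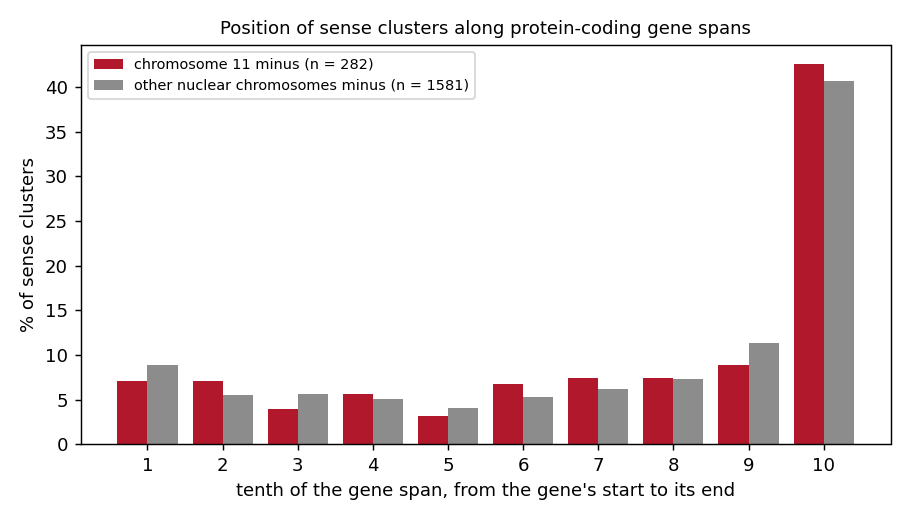
Percent of sense clusters in each 10% of the protein-coding gene span that holds them, read from the gene's start to its end, for chromosome 11 (red, 282 clusters) and the other nuclear chromosomes (grey, 1581 clusters). The last 10% held 42.6% on chromosome 11 and 40.7% elsewhere.

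Support by the other 3 lists was counted as an overlap of at least 1 nt on the same strand. Strandless Pyicoclip peaks matched either strand. Of the 391 clusters, 42 were overlapped, 10.7% (8.05 to 14.2), beside 12.1% of all nuclear minus-strand clusters and 20.5% of all nuclear PIPE-CLIP clusters. With stranded peaks only, 41 were overlapped (10.5%). Against the other chromosomes, with 301 of 2433 or 12.4% (11.1 to 13.7), the difference was -1.63 points (interval -4.65 to 2.05) and was not detectable (exact test, adjusted p = 0.809). Against the plus-strand clusters of the same chromosome the share was lower. There 21 of 28 clusters were overlapped, 75% (56.6 to 87.3), a difference of -64.3 points (interval -76.9 to -45.6; exact test, adjusted p = 9.03e-13). The test counts each cluster as independent, although a gene can hold several. With each gene counted once, 18% of 167 genes had support on the minus strand of chromosome 11 and 90% of 20 on its plus strand (exact test, adjusted p = 1.46e-09). A lower share on the minus strand was not particular to chromosome 11. Over all nuclear chromosomes, 343 of 2824 minus-strand clusters were overlapped (12.1%), against 660 of 3217 of both strands together (20.5%). Most of the 3217 were minus-strand clusters, so the share of the plus-strand clusters alone was well above 20.5%. It was not computed here.

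All 42 were overlapped by Pyicoclip, 10 also by Piranha and 1 by CIMS, so Pyicoclip alone set the count. They lay in 30 genes. By orientation, 22 were sense and 2, those of Gm36876, antisense, and the remainder were in genes of unmatched or both strands or in no gene. Read the other way, the clusters overlapped 43 of 87 Pyicoclip minus-strand peaks on the chromosome, 49.4% (39.2 to 59.7), and 13 of 56 Piranha peaks, 23.2% (14.1 to 35.8).

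Overlapped clusters had a median score of 22 (quartiles 16 and 30), against 13 (11 and 17) for the 349 that were not. The share was also read by score, without a test. It was 2.45% of 163 clusters scoring 10 to 12, 9.72% of 144 scoring 13 to 19, 19.4% of 62 scoring 20 to 29 and 54.5% of 22 scoring 30 or more. On the other chromosomes the same steps were 3.10%, 8.77%, 24.1% and 71.6%, and the intervals of both groups overlapped in each step. The plus-strand clusters of chromosome 11 had 60% of 15 overlapped at scores of 10 to 12 (35.7 to 80.2), against an interval of 0.958 to 6.14 for the minus strand at those scores.

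**Figure D4:**
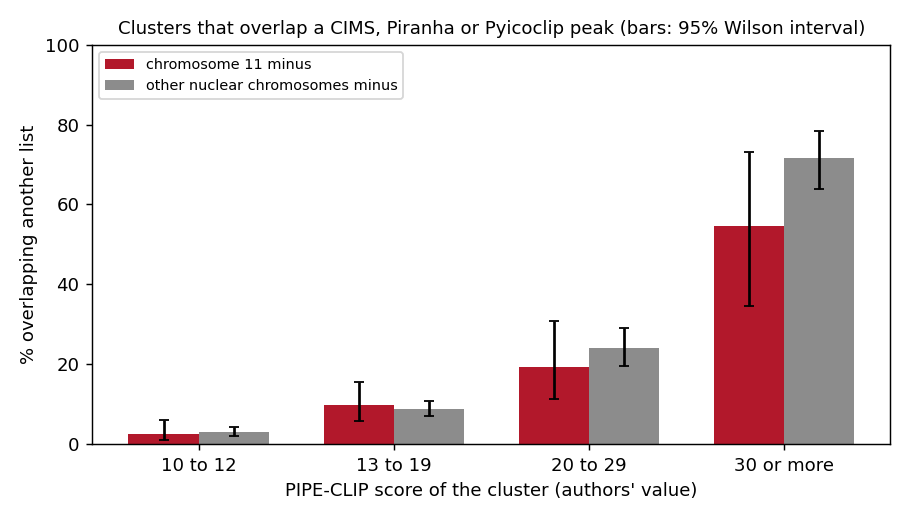
Percent of clusters overlapping a CIMS, Piranha or Pyicoclip peak by score of the cluster, for chromosome 11 minus-strand clusters (red, left of each pair) and minus-strand clusters of the other nuclear chromosomes (grey), with 95% Wilson intervals. On chromosome 11 the share was 2.45% at scores of 10 to 12 and 54.5% at 30 or more.

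The 10 clusters overlapped by at least 2 other lists made up 2.56% (1.40 to 4.64), beside 4.46% of all nuclear minus-strand clusters. They were the 2 in Gm36876, 2 in Npm1 and 1 each in Sqstm1, Kdm6b, Tns3, Npepps, Nup88 and Ddx5. Npm1 encodes nucleophosmin, a nucleolar chaperone of ribosome assembly, and all 3 of its clusters had support, with its gene strand not matched. Its cluster at 33152520 to 33152617 scored 37, with Pyicoclip peaks of 41 and a Piranha peak of 12. Its cluster at 33159932 to 33159988 scored 18 in PIPE-CLIP, while the Pyicoclip peaks there scored 68 and 39. Scores of different callers are not on 1 scale. Sqstm1, the gene of the autophagy receptor p62, had a sense cluster of 34 at 50200158 to 50200257, 55 nt from its annotated end. The Tns3 and Npepps clusters lay 1238 and 994 nt from their gene ends, and that of Nup88, a nuclear pore gene, lay in the first 10% of its gene, 24870 nt from the end.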

How the data were processed

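The authors deposited 4 peak lists, made with PIPE-CLIP, CIMS, Piranha and Pyicoclip per the file names, each with a score per peak of unstated unit. Per the submitters' processing notes, cutadapt, Novoalign and build mm10 were used; caller versions, settings and library pooling were not given in the sources used here. Depth is unknown, and intervals cover counting error only. Midpoints of clusters were assigned to RefSeq gene spans (GRCm38.p6), and gene strands came from the RefSeq start-window and microRNA tables. The 137 strandless Pyicoclip peaks matched either strand. Shares have 95% Wilson intervals, differences Newcombe intervals, and the 8 Fisher's exact tests, two-sided, were adjusted together by the Benjamini-Hochberg method (threshold 0.05). Seed matches over all clusters were planned and not run, since the genome was not used here, and 1 motif was searched in the 7 clusters with sequence. The functions were tested on simulated data.

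The clusters and gene lists were chosen with earlier results of these data known. Named genes were the 15 with most clusters, those of the 10 highest scores or of at least 2 other lists, and the first 4 of each gene list and of each of the 5 fullest windows; others were named after their values were seen. Alternatives covered overlap, strand, score, width, gene counting and windows. Python 3.11.15, numpy 2.4.6, pandas 2.3.3, scipy 1.17.1, statsmodels 0.14.6 and matplotlib 3.10.9 were used.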

Additional observations from a re-analysis of the deposited data

How the results depend on the processing

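The lower support than on the plus strand of chromosome 11 passed the test under all 5 alternatives, with differences of -57.6 to -72.0 points. The settings of 50% overlap and of strand ignored returned the same counts as the main setting, so they add no check. That of scores of at least 20 rested on 6 plus-strand clusters. No difference from the other chromosomes passed the adjusted test in any alternative. With scores of at least 20, support was 28.6% on chromosome 11 against 39.0% elsewhere, a difference of -10.4 points (exact test, adjusted p = 0.23), and the protein-coding share was 96.4% against 87.3%, a difference of 9.14 points (adjusted p = 0.0556). Others changed sign. For support, the value was 4.68 points with each gene counted once and 1.92 points for clusters of at most 100 nt. For scores of at least 20, the sense share differed by -1.67 points, the share in the last 10% of the span by -7.36 points, and the protein-coding share against the plus strand by -3.57 points. The cause was not tested. Counted by genes with a cluster, chromosome 11 held 10.8% in place of 13.8%, since its genes held more clusters each. Shifted windows gave 98 clusters in the 5 fullest in place of 96, and a gap of 50 kb gave 145 runs in place of 119.

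No paired analysis was possible because no list names its libraries, and for the same reason no library was left out. The plus-strand comparison rests on 28 clusters. A gene strand was missing for 79 clusters, among them all those of Igf2bp1, Kdm6b, Dynll2, Znrf3, Mtmr3 and Npm1.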

Other observations

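Among the minus-strand peaks of chromosome 11 that met no PIPE-CLIP cluster, the highest Pyicoclip score was 21, in no gene at 13929000 to 13929192, where Piranha had a peak of 19. The next named ones were in Sgcd, a sarcoglycan gene, with a sense peak of 19 in both lists, and in Ap2b1, an adaptor protein gene of clathrin coats, with an antisense peak of 17 in both lists. Efcab3 had the same antisense scores of 17 in both lists. Outside the clusters, 16 Pyicoclip peaks were sense and 6 antisense, and 14 Piranha peaks were sense and 7 antisense. These genes were chosen after their values were seen.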
